A study of Rattus norvegicus with 2 samples.

Results

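The matrix metalloproteinases (MMPs), the ADAMTS proteinases, the ADAMTS-like (ADAMTSL) proteins and the tissue inhibitors of metalloproteinases (TIMPs) were compared between tafazzin-deficient and wild-type rat glioma cells. The members were all genes whose own symbol is Mmp, Adamts, Adamtsl or Timp followed by a number and nothing else. They are 47 of the 20669 genes that the array reports under a single symbol, namely 21 MMP, 18 ADAMTS, 4 ADAMTSL and 4 TIMP genes. The cells labelled C6 TAZ are C6 cells in which tafazzin, an acyltransferase that remodels the mitochondrial phospholipid cardiolipin, was knocked out with the CRISPR-Cas9 system. The cells labelled C6 are the wild-type parent line, an established rat glioma line, grown in the same serum-containing medium. The sources used here do not say whether the C6 TAZ cells are 1 clone. For each genotype, RNA from 3 cultures was pooled and hybridised to 1 Affymetrix Clariom S rat array, so that no difference below has a replicate check, a p-value or an SD, and precision is limited by having 1 array per genotype. In such a bulk measurement, less RNA per cell and fewer cells that express a gene cannot be told apart.

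MMPs and ADAMTS enzymes are zinc endopeptidases that act in the pericellular space. MMPs are made as inactive zymogens in which a cysteine of the propeptide blocks the zinc of the active site, and they are switched on when the propeptide is cut by furin-like convertases, plasmin or other MMPs. They cut collagens, gelatin, laminin, proteoglycans and many cell surface proteins, and in glioma they are known for opening paths for invading cells. ADAMTS enzymes carry thrombospondin repeats that bind them to the matrix, and their main substrates are the large chondroitin sulfate proteoglycans, procollagens and fibrillin-linked proteins. ADAMTSL proteins share these repeats but lack the catalytic domain. TIMPs block the active site of MMPs and, in the case of TIMP3, of several ADAM and ADAMTS enzymes as well. MMPs are also counted among the proteases that senescent cells release, which is the setting in which the study mentions them.

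Signals on the log2 scale were available for 23188 transcript clusters (sets of probes, each read as 1 value) in both arrays, with a median of 6.40 in the C6 TAZ array and 6.39 in the C6 array. A log2 difference is always that of C6 TAZ minus C6, so that a value of 1 stands for 2-fold more signal in C6 TAZ. The deposited tables disagree on which array is which. A workbook gives the signals under the names C6 TAZ and C6, while the per-sample value table matches the workbook in 100% of the clusters if its 2 names are exchanged and in 1.16% as labelled. The names of the workbook, which the study also prints, were used. With those of the other table every difference below that is not 0 changes its sign. Tafazzin itself (Taz) had a signal of 9.84 in the C6 TAZ array and 10.34 in the C6 array. Where its probes lie relative to the edited part is not known, so that this checks nothing about the genotype. Of the glial markers, Vim, Nes, S100b and Cnp had log2 signals from 10.40 to 18.77 in the C6 TAZ array and from 9.82 to 18.72 in the C6 array, while Gfap was dim at 6.38 in the C6 TAZ array and 5.73 in the C6 array. The remaining marker, Slc1a3, a glutamate transporter of astrocytes, was dimmer still, at 4.67 in the C6 TAZ array and 3.91 in the C6 array, with the largest difference of the list (0.76).

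The deposited values carry no call of detection. As a yardstick of low signal, 1320 clusters of olfactory and vomeronasal receptors were used, which glioma cells have little reason to express. Their 95th percentile was a log2 signal of 5.96 in the C6 TAZ array and 5.87 in the C6 array. A signal under this yardstick does not show that a gene is silent, and because probes differ in brightness, signals of different genes do not rank their transcripts. Of the 47 members, 18 lay above the yardstick in both arrays and 26 in neither. Adamts17 was above it in the C6 TAZ array alone, and Mmp2 and Mmp7 in the C6 array alone. The 5 markers of microglia and macrophages, cells that supply several MMPs in brain tumours, lay under it in both arrays, with log2 signals from 3.44 to 4.78 in the C6 TAZ array and from 3.66 to 4.94 in the C6 array. Of the list for neutrophils, which store Mmp8 and Mmp9, Mpo, Elane and S100a8 were also under it in both arrays. The list also held Ly6g6c, at 7.41 in the C6 TAZ array and 6.75 in the C6 array, which is a different gene from Ly6g, the mouse neutrophil antigen, and is not read as a neutrophil marker. The lists for endothelium, fibroblasts and neurons were mixed. Tek was at 5.58 in the C6 TAZ array and 7.05 in the C6 array (−1.47). Pdgfra was at 14.61 in the C6 TAZ array and 14.76 in the C6 array. Map2 and Snap25 were at 13.30 and 9.42 in the C6 TAZ array and 13.39 and 9.65 in the C6 array. Col1a1 and Col1a2 were near the yardstick. Pecam1, Cdh5, Kdr, Lum, Rbfox3 and Syt1 were under it in both arrays.

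**Figure D1:**
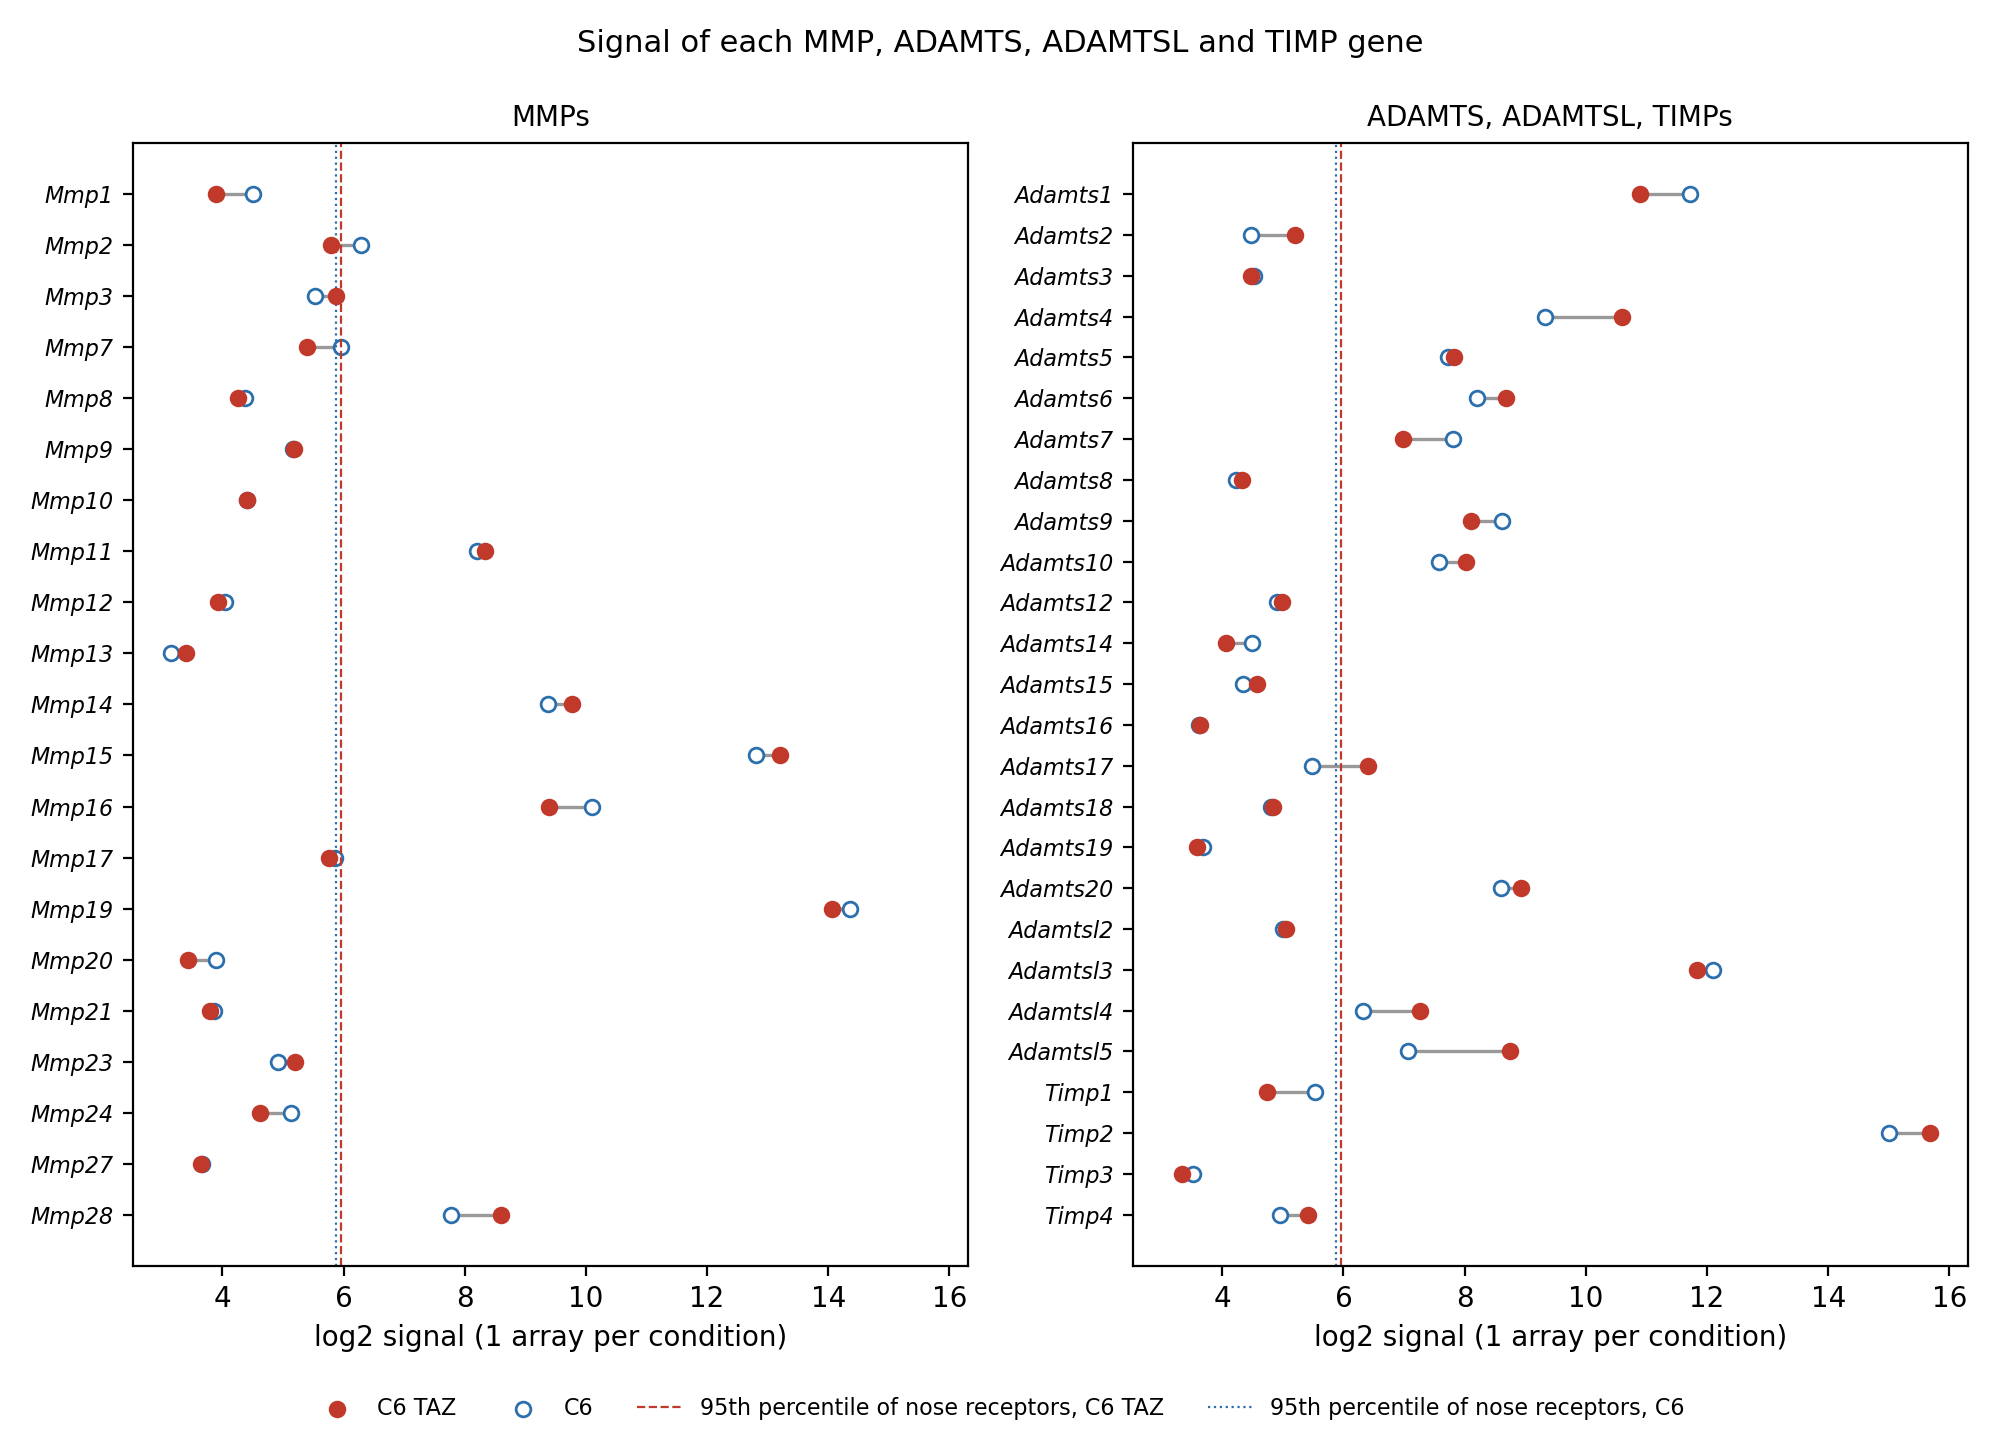
Log2 signal of each of the 47 genes in the C6 TAZ array (filled red) and in the C6 array (open blue), with MMPs in the left panel and ADAMTS, ADAMTSL and TIMP genes in the right panel. The dashed and dotted lines mark the 95th percentile of nose receptor clusters, 5.96 in the C6 TAZ array and 5.87 in the C6 array, and 18 genes lie above it in both arrays.

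These genes passed 2-fold about as often as other genes did. Adamtsl5 and Adamts4 were at least 2-fold higher in C6 TAZ and no member was 2-fold lower, which is 2 of 47 members (4.26%) against 4.35% of all 20669 genes in either direction. In the upward direction alone, 2.31% of all genes passed 2-fold, and in the downward direction 2.04%. At 1.5-fold, a criterion of the study's methods, 7 members were higher and 5 lower, where 9.75% of all genes were higher and 8.95% lower (18.7% in either direction). The median difference was 0.02 over the members and 0.00 over all genes. With a minimum log2 signal of 6 in either array it was 0.37 over 20 members, and with one of 8 it was 0.40 over 15. Over all genes it was 0.00 and −0.01 at these minimums. Adamtsl5 and Adamts4 are 2 of these 20 and 2 of these 15 members (13.3%), against 5.76% and 5.57% of all genes at those signals. A minimum in either array keeps genes that pass it through the higher array alone. At 8, Adamtsl5, Mmp28 and Adamts10 passed through the C6 TAZ array alone, and no member passed through the C6 array alone. These medians and shares are therefore given as a description. Positive differences were found for 25 members, negative ones for 21, and Mmp10 had the same signal in both arrays. The differences ran from −0.82 for Adamts1 and Adamts7 to 1.69 for Adamtsl5. The share past 2-fold in the nose receptor clusters, where most signals are low, was 4.47%.

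**Figure D2:**
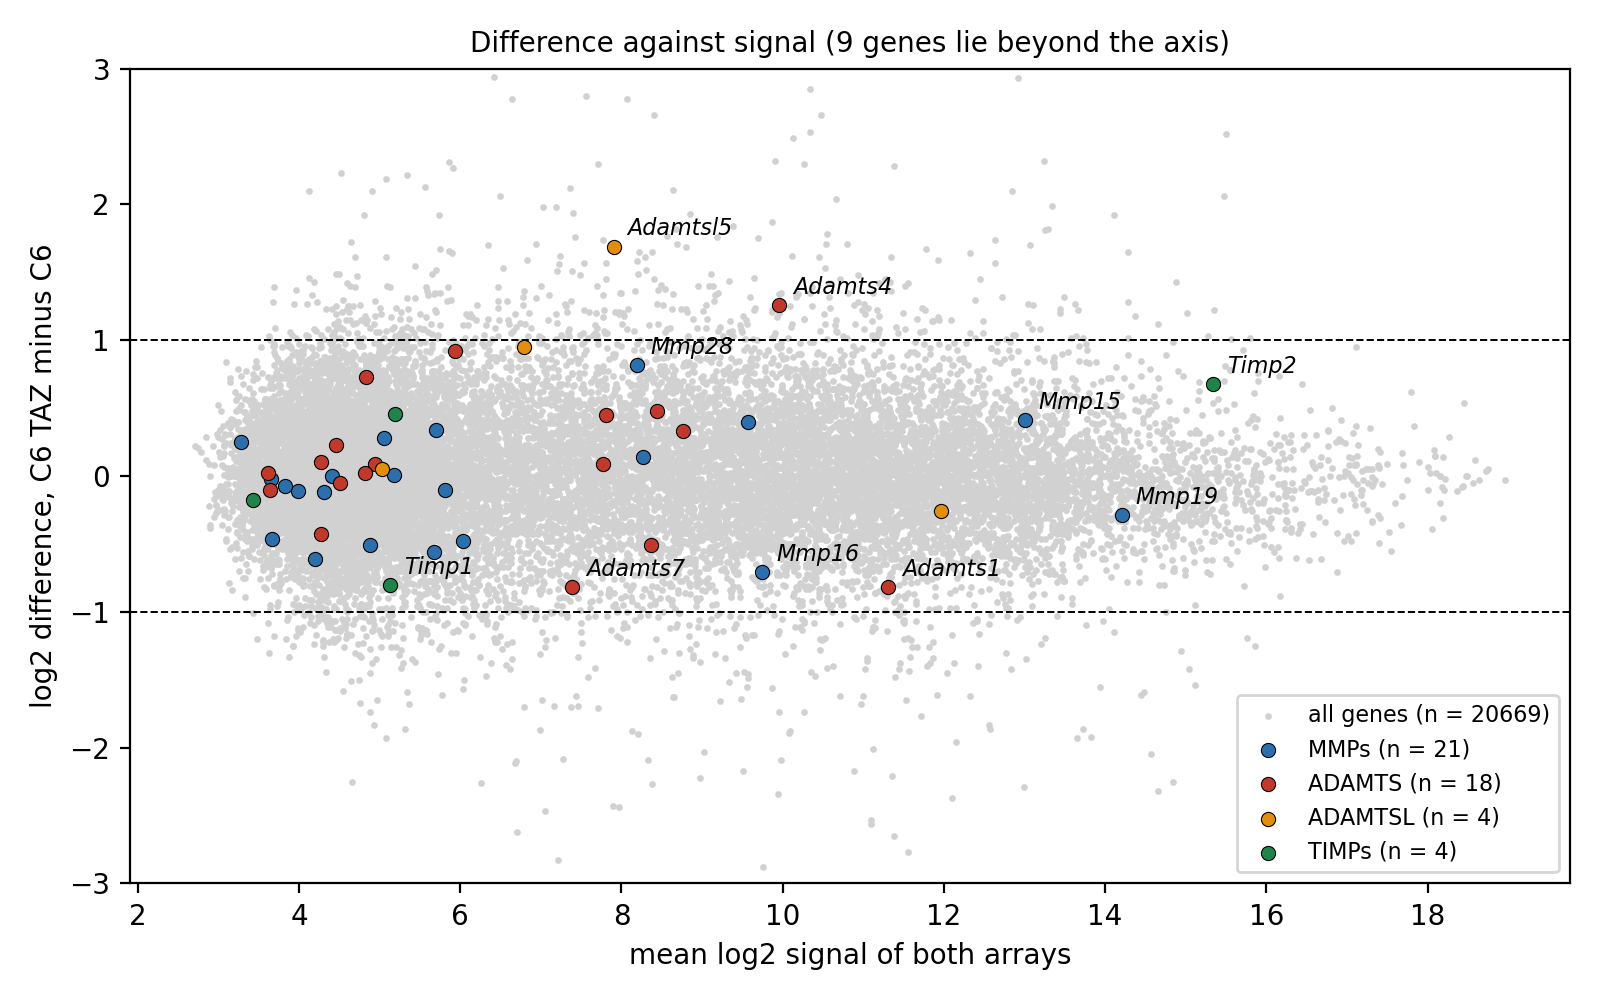
Log2 difference of C6 TAZ minus C6 (vertical axis) against the mean log2 signal of both arrays (horizontal axis) for all 20669 genes (grey) and for the MMP, ADAMTS, ADAMTSL and TIMP genes (coloured), with dashed lines at 2-fold. Adamtsl5 (1.69) and Adamts4 (1.26) are the members beyond the dashed lines.

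Most MMP genes were dim in both arrays, and none of the 21 passed 2-fold (0 of 21, against 4.35% of all genes). Their median difference was −0.07, with a range from −0.71 to 0.82. The secreted MMPs that are best known from inflamed and invaded tissue were among the dim ones. Mmp9, the gelatinase of neutrophils and macrophages, showed a log2 signal of 5.18 in the C6 TAZ array and 5.17 in the C6 array. Mmp2, the other gelatinase, was at 5.80 in the C6 TAZ array and 6.28 in the C6 array, a difference of −0.48 across the yardstick. The stromelysin Mmp3 was at 5.87 in the C6 TAZ array and 5.53 in the C6 array, and the collagenase Mmp13 at 3.40 in the C6 TAZ array and 3.15 in the C6 array. The arrays thus held no bright signal of a secreted collagenase or gelatinase in either genotype.

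Of these dim genes, 9 stand side by side on chromosome 8, and those outside the naming rule are described for this position. In the RefSeq order of protein-coding genes of the GRCr8 assembly the stretch reads Mmp13, Mmp12, Mmp1b, Mmp3, Mmp1, Mmp10, Mmp8, Mmp27, Mmp20 and Mmp7, where Mmp1b falls outside the rule because its symbol ends in a letter. The 9 members had log2 signals from 3.40 to 5.87 in the C6 TAZ array and from 3.15 to 5.96 in the C6 array. Their differences ran from −0.61 for Mmp1 to 0.34 for Mmp3, with a median of −0.11. None passed 2-fold, against 4.35% of all genes in either direction. In the C6 TAZ array all 9 lay under the yardstick, and in the C6 array Mmp7 alone exceeded it, at 5.96. After Mmp1, the largest differences in size were those of Mmp7, the matrilysin, at −0.56 (5.40 in the C6 TAZ array and 5.96 in the C6 array) and Mmp20, the tooth enamelysin, at −0.46 (3.43 in the C6 TAZ array and 3.89 in the C6 array). The neutrophil collagenase Mmp8, the macrophage elastase Mmp12, Mmp10 and Mmp27 differed by no more than 0.12 in size. Mmp1b had a difference of 0.52 at signals of 3.54 in the C6 TAZ array and 3.02 in the C6 array. The next gene on the Mmp13 side, Dcun1d5, was bright in both arrays, at 11.51 in the C6 TAZ array and 11.54 in the C6 array.

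Several promoters of this cluster are textbook examples of control by AP-1, the dimer of Fos and Jun proteins. The cluster is shown here because genes of AP-1 subunits differed strongly between the arrays. Fos showed a log2 signal of 13.80 in the C6 TAZ array and 9.89 in the C6 array, and Junb one of 11.80 in the C6 TAZ array and 9.14 in the C6 array, while Jun was at 13.28 in the C6 TAZ array and 13.35 in the C6 array. The 250 bases before the gene start were searched on both strands for the AP-1 letters TGANTCA, where N is any base. They were also searched on both strands for the TATA box letters TATAAA. Overlapping matches were kept. The sequences are from RefSeq (GRCr8), which held an entry for 36 of the 47 members. The 11 members without an entry, among them Mmp2, Mmp9, Mmp14 and Adamts5, were not searched. AP-1 letters were found in 7 of the 36, all of them in the cluster on chromosome 8, and in none of the other 27 members with an entry. Among all 27457 genes with an entry, 6.36% held them. TATA letters were found in 13 of the 36 members, of which 8 belong to the cluster, and in 13.1% of all genes. Both motifs stood together in the same 7 members, against 1.10% of all genes. All 7 are neighbours in 1 cluster, where AP-1 control was already known for several promoters. These shares are therefore given as a description. The last 100 bases before the start are given below for these 7 genes in their order on the chromosome, 5′ to 3′ on the plus strand, with AP-1 and TATA letters in capitals.
Mmp13 (chr8:12782729-12782828): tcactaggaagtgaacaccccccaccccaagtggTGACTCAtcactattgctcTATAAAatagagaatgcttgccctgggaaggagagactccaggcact
Mmp12 (chr8:12866552-12866651): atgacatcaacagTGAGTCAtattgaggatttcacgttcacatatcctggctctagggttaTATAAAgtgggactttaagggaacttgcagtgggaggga
Mmp3 (chr8:12925181-12925280): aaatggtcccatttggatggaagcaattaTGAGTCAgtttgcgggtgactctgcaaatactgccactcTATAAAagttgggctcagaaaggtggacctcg
Mmp1 (chr8:12943353-12943452): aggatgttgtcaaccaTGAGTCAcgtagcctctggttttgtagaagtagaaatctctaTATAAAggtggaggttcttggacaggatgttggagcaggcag
Mmp10 (chr8:12974607-12974706): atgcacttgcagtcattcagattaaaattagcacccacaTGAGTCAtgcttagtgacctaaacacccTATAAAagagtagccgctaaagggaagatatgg
Mmp20 (chr8:13074179-13074278): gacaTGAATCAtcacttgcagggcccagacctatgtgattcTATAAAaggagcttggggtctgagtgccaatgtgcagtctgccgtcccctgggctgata
Mmp7 (chr8:13132943-13133042): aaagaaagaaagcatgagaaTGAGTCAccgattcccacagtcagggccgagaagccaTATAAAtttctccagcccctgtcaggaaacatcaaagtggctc

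In each of the 7 printed sequences the AP-1 letters stand before the TATA letters. The AP-1 match nearest to the start began 61 bases before it in Mmp10, 66 in Mmp13, 71 in Mmp3, 80 in Mmp7, 84 in Mmp1, 87 in Mmp12 and 96 in Mmp20. Mmp1 held a further AP-1 match that began 242 bases before the start. Upstream of the printed sequences, TATA letters also began 198 and 196 bases before the start in Mmp10 and 140 in Mmp7. In these genes the order was therefore not the same over all the bases searched. Mmp8 held TATA letters alone and Mmp27 held neither. The 7 genes with AP-1 letters had differences from −0.61 to 0.34 with a median of −0.11, and signals from 3.40 to 5.87 in the C6 TAZ array and from 3.15 to 5.96 in the C6 array. A match is a description of letters, and whether Fos or Jun proteins bind there was not tested.

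**Figure D3:**
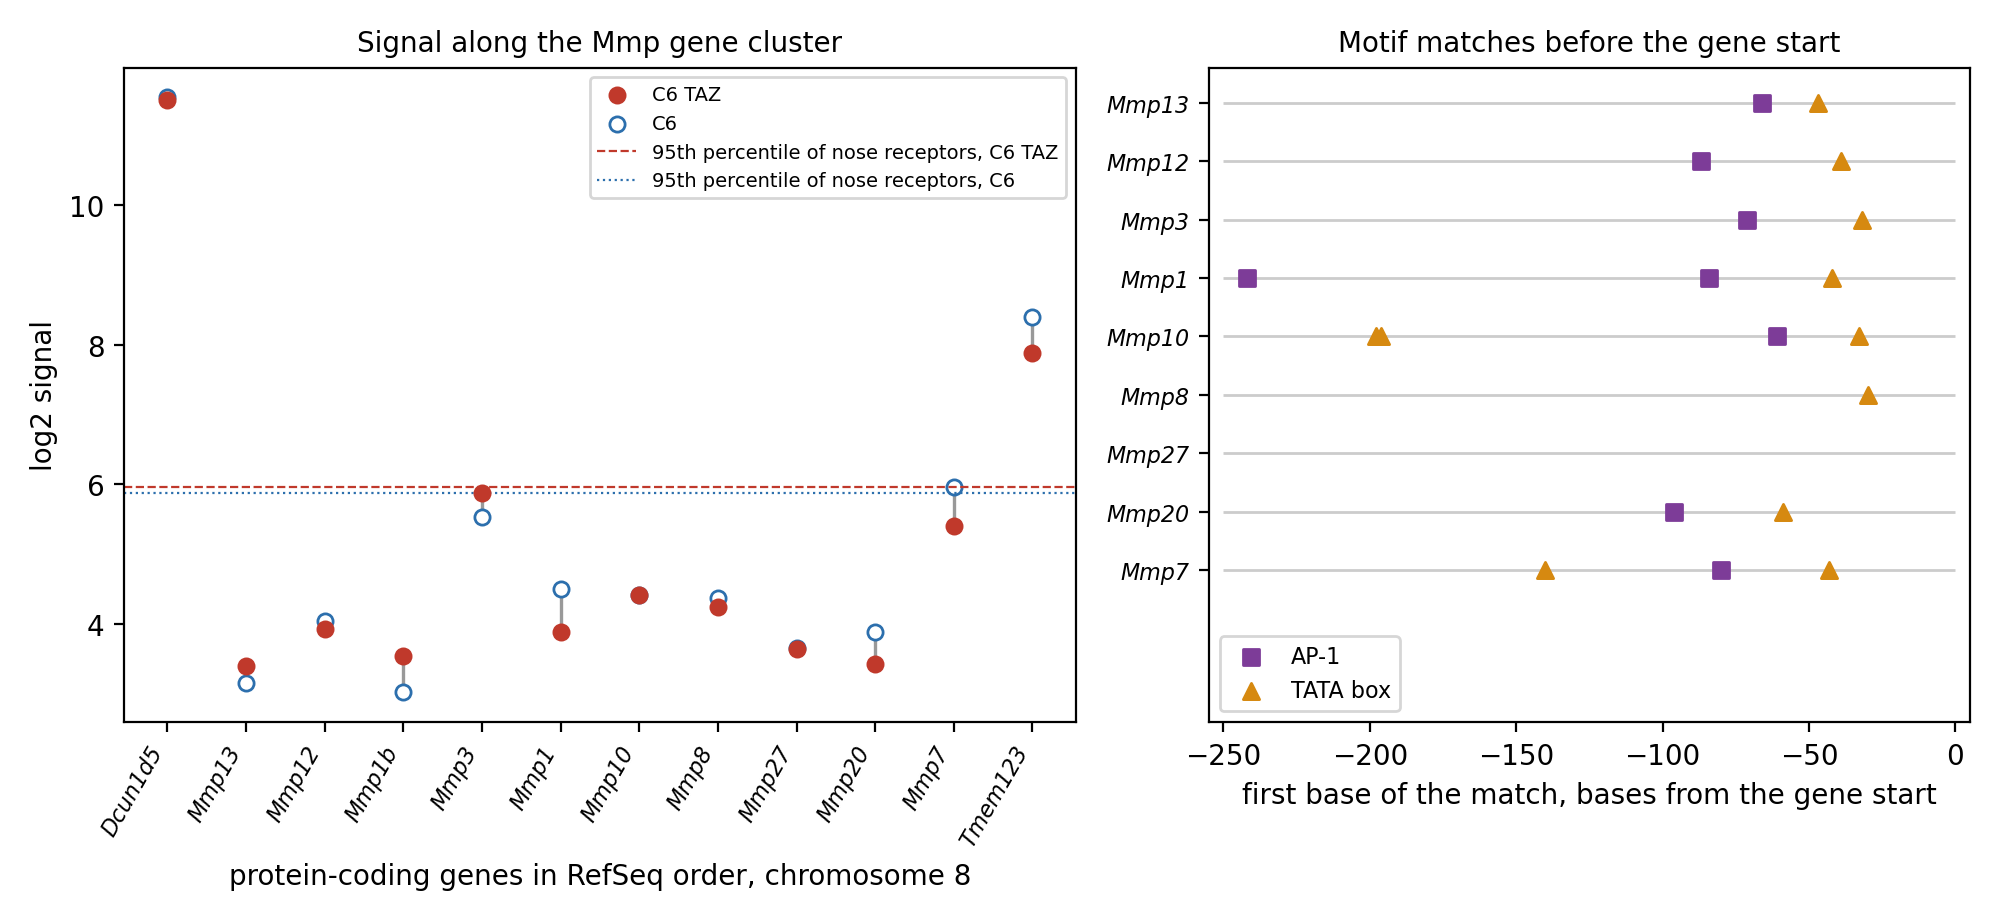
Left, log2 signal in the C6 TAZ array (filled red) and the C6 array (open blue) of the genes of the Mmp cluster on chromosome 8 and of a measured gene on each side, in RefSeq order, with the 95th percentile of nose receptors as lines. Right, distance from the gene start of AP-1 (squares) and TATA (triangles) letters on either strand in the 250 bases before the start of the 9 member genes, with AP-1 letters in 7 of them.

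The MMP genes with a clear signal were membrane-type enzymes and 3 others. The membrane-type MMPs stay anchored to the cell surface, where Mmp14 activates the gelatinase Mmp2. Mmp14 showed a log2 signal of 9.77 in the C6 TAZ array and 9.37 in the C6 array, and Mmp15 one of 13.21 in the C6 TAZ array and 12.80 in the C6 array. Both were thus slightly higher in the C6 TAZ array, by 0.40 and 0.41. Mmp16 went the other way, with 9.39 in the C6 TAZ array and 10.10 in the C6 array, a difference of −0.71 that is the lowest of the MMPs. Mmp17 and Mmp24, the other members of this class, were under the yardstick in both arrays.

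Among the remaining MMPs, Mmp19, an enzyme of basement membrane components, was bright in both arrays, at 14.06 in the C6 TAZ array and 14.35 in the C6 array. Mmp11, a stromelysin that is activated by furin inside the cell, had a mean of 8.34 in the C6 TAZ array and 8.20 in the C6 array over 2 clusters. Mmp28, the epilysin, had the largest positive difference of the MMPs, 0.82 as the mean of 2 clusters (8.60 in the C6 TAZ array and 7.78 in the C6 array). Its clusters did not give the same picture. One had a signal of 9.05 in the C6 TAZ array and 7.77 in the C6 array, which is 2.43-fold higher, and the other 8.14 in the C6 TAZ array and 7.79 in the C6 array, which is 1.27-fold higher. With the brighter cluster alone, Mmp28 would be past 2-fold and 3 members in place of 2 would be higher.

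The ADAMTS enzymes that cut proteoglycans differed in both directions. Adamts4, an aggrecanase that also cleaves the brain proteoglycans brevican and versican and that marks oligodendrocytes in mouse brain, showed a log2 signal of 10.59 in the C6 TAZ array and 9.33 in the C6 array. This is a difference of 1.26, or 2.39-fold more signal in C6 TAZ. Adamts1, an enzyme with the same kind of substrates, was at 10.90 in the C6 TAZ array and 11.72 in the C6 array, a difference of −0.82 or 1.77-fold lower. The pair thus differed in opposite directions at signals well above the yardstick. Opposite differences also occurred among ADAMTS genes outside this class, with 0.92 for Adamts17 and −0.82 for Adamts7. Adamts5, the other main aggrecanase and the neighbour of Adamts1 on chromosome 11, was nearly equal, at 7.82 in the C6 TAZ array and 7.73 in the C6 array. Adamts9, which acts on versican, had a signal of 8.11 in the C6 TAZ array and 8.62 in the C6 array, and its closest relative Adamts20 one of 8.93 in the C6 TAZ array and 8.60 in the C6 array. Adamts8 and Adamts15 were dim in both arrays. Over these 7 proteoglycanases, 1 was higher by 2-fold and none was lower, where 2.31% of all genes were higher and 2.04% lower, and the median difference was 0.10.

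The 6 nearest protein-coding genes on each side of Adamts4 on chromosome 13 had differences from −0.72 to 0.37, so that no gene next to it was past 2-fold. The same stretch around Adamtsl5 on chromosome 7 held 10 genes with a value, from −0.74 to 1.03, and the highest was Apc2 (7.49 in the C6 TAZ array and 6.46 in the C6 array), 4 places from it. Neither Adamts4 nor Adamtsl5 held AP-1 or TATA letters in the 250 bases before the start. Their last 100 bases are shown for comparison with the Mmp cluster, both on the plus strand of GRCr8, and they hold no capitals.
Adamts4 (chr13:86202911-86203010): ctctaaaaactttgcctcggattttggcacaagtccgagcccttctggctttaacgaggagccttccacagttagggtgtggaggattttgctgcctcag
Adamtsl5 (chr7:10013855-10013954): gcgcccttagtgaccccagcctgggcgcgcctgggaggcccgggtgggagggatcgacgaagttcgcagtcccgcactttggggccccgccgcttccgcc

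The procollagen N-proteinases Adamts2, Adamts3 and Adamts14, which trim the propeptides of fibrillar collagens, lay under the yardstick in both arrays, with differences of 0.73, −0.05 and −0.43. Adamts2, named after its value was seen, had the largest of these at signals of 5.20 in the C6 TAZ array and 4.47 in the C6 array. Of the other 8 ADAMTS genes none passed 2-fold, against 4.35% of all genes in either direction, and their median difference was 0.06. Adamts6 and Adamts10, which act on the fibrillin microfibrils, were both somewhat higher, with Adamts6 at 8.68 in the C6 TAZ array and 8.20 in the C6 array and Adamts10 at 8.03 in the C6 TAZ array and 7.58 in the C6 array. Adamts17, named after its value was seen, was at 6.40 in the C6 TAZ array and 5.48 in the C6 array, a difference of 0.92. Adamts7, which cuts cartilage oligomeric matrix protein and was also named after its value was seen, was at 6.98 in the C6 TAZ array and 7.80 in the C6 array, a difference of −0.82. Adamts12, Adamts16, Adamts18 and Adamts19 were dim in both arrays and differed by 0.10 or less in size.

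Of the 4 ADAMTSL genes, 1 passed 2-fold upward and none downward (2.31% and 2.04% of all genes), with a median of 0.50. Adamtsl5, a secreted glycoprotein that binds fibrillin microfibrils, had the largest difference of all 47 members, with a log2 signal of 8.75 in the C6 TAZ array and 7.06 in the C6 array (1.69, or 3.23-fold higher). Adamtsl4, which also belongs to the fibrillin microfibrils and is known for holding the lens of the eye in place, was at 7.27 in the C6 TAZ array and 6.32 in the C6 array. Its difference of 0.95, given after its value was seen, falls just short of 2-fold. Adamtsl3 was bright and slightly lower, at 11.84 in the C6 TAZ array and 12.10 in the C6 array, and Adamtsl2 was dim in both arrays with a difference of 0.05.

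None of the 4 TIMP genes passed 2-fold, against 4.35% of all genes in either direction, and their median difference was 0.14. Timp2, which inhibits MMPs and also takes part in the activation of Mmp2 by Mmp14, showed a log2 signal of 15.68 in the C6 TAZ array and 15.00 in the C6 array, a difference of 0.68 or 1.60-fold higher. The other 3 lay under the yardstick in both arrays. Timp1, the inducible TIMP, was at 4.73 in the C6 TAZ array and 5.53 in the C6 array, a difference of −0.80. Timp3, which is bound to the matrix, was at 3.34 in the C6 TAZ array and 3.52 in the C6 array, and Timp4 at 5.42 in the C6 TAZ array and 4.96 in the C6 array. Timp2 was thus the single TIMP with a clear signal in both genotypes.

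Genes that act with these enzymes were read from 5 lists. Reck, a membrane-anchored inhibitor of MMPs, showed a log2 signal of 11.80 in the C6 TAZ array and 10.45 in the C6 array, a difference of 1.35 or 2.55-fold higher. It was the single one of 11 genes for other inhibitors, inducers and clearance receptors past 2-fold (median 0.31), and the background of genes higher by 2-fold was 2.31%. In this list the endocytic receptor gene Lrp1, which clears MMPs, ADAMTS enzymes and TIMP3, was higher by 0.80 (13.76 in the C6 TAZ array and 12.96 in the C6 array). Cd44, a hyaluronan receptor that docks MMPs at the cell surface, was higher by 0.78 (15.94 in the C6 TAZ array and 15.16 in the C6 array). Spock1, a testican, was higher by 0.31 near the yardstick, at 6.04 in the C6 TAZ array and 5.73 in the C6 array.

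None of the 12 genes of the plasminogen system and the proprotein convertases passed 2-fold, against 4.35% of all genes in either direction. A positive difference was found for 10, with a median of 0.59 over the list. By 1.5-fold or more 6 were higher, with a background of 9.75%. Of these 6, Plau, Serpinf2 and Pcsk5 lay under the yardstick in both arrays. Their signals were 4.09, 4.91 and 4.50 in the C6 TAZ array and 3.41, 4.11 and 3.91 in the C6 array. They are named after their values were seen. Plat, the tissue plasminogen activator, was higher by 0.63 (7.01 in the C6 TAZ array and 6.38 in the C6 array). Plaur, the urokinase receptor, was higher by 0.62 (10.31 in the C6 TAZ array and 9.69 in the C6 array), and the convertase gene Pcsk6 by 0.60 (10.40 in the C6 TAZ array and 9.80 in the C6 array). The protease inhibitor gene Serpine2, with a difference of −0.39, went the other way, at 17.86 in the C6 TAZ array and 18.25 in the C6 array, and is named here after its value was seen.

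Of 11 ADAM genes with a cluster of their own, 1 passed 2-fold downward and none upward (median 0.19), where 2.04% of all genes were lower. Adam12, a sheddase of growth factors, was at 11.86 in the C6 TAZ array and 13.02 in the C6 array, a difference of −1.16 or 2.23-fold lower. Adam17, the sheddase of tumour necrosis factor, was higher by 0.41 and Adam10 by 0.22. Adam28 differed by −0.52 near the yardstick, at 5.52 in the C6 TAZ array and 6.04 in the C6 array. Of 6 genes around the astacin-type procollagen proteinases none passed 2-fold (median 0.30), against 4.35% of all genes in either direction. Bmp1, the procollagen C-proteinase, was at 7.44 in the C6 TAZ array and 6.78 in the C6 array, and its enhancer Pcolce at 10.33 in the C6 TAZ array and 10.96 in the C6 array.

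Among 19 genes for substrates, 2 passed 2-fold upward (10.5%) and none downward, against 2.31% and 2.04% of all genes, with a median of 0.16. These were Col3a1, a fibrillar collagen, at 9.24 in the C6 TAZ array and 8.01 in the C6 array, and Reln, an extracellular protein cleaved by ADAMTS enzymes, at 14.09 in the C6 TAZ array and 13.07 in the C6 array. Versican (Vcan), a substrate of Adamts1, Adamts4, Adamts5 and Adamts9, was lower by 0.65 on the log2 scale, at 10.92 in the C6 TAZ array and 11.57 in the C6 array. The difference was −0.72 for tenascin C (Tnc), at 14.94 in the C6 TAZ array and 15.66 in the C6 array, and 0.50 for the proteoglycan gene Cspg4. The substrates thus differed in both directions, as did the enzymes that cut them.

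**Figure D4:**
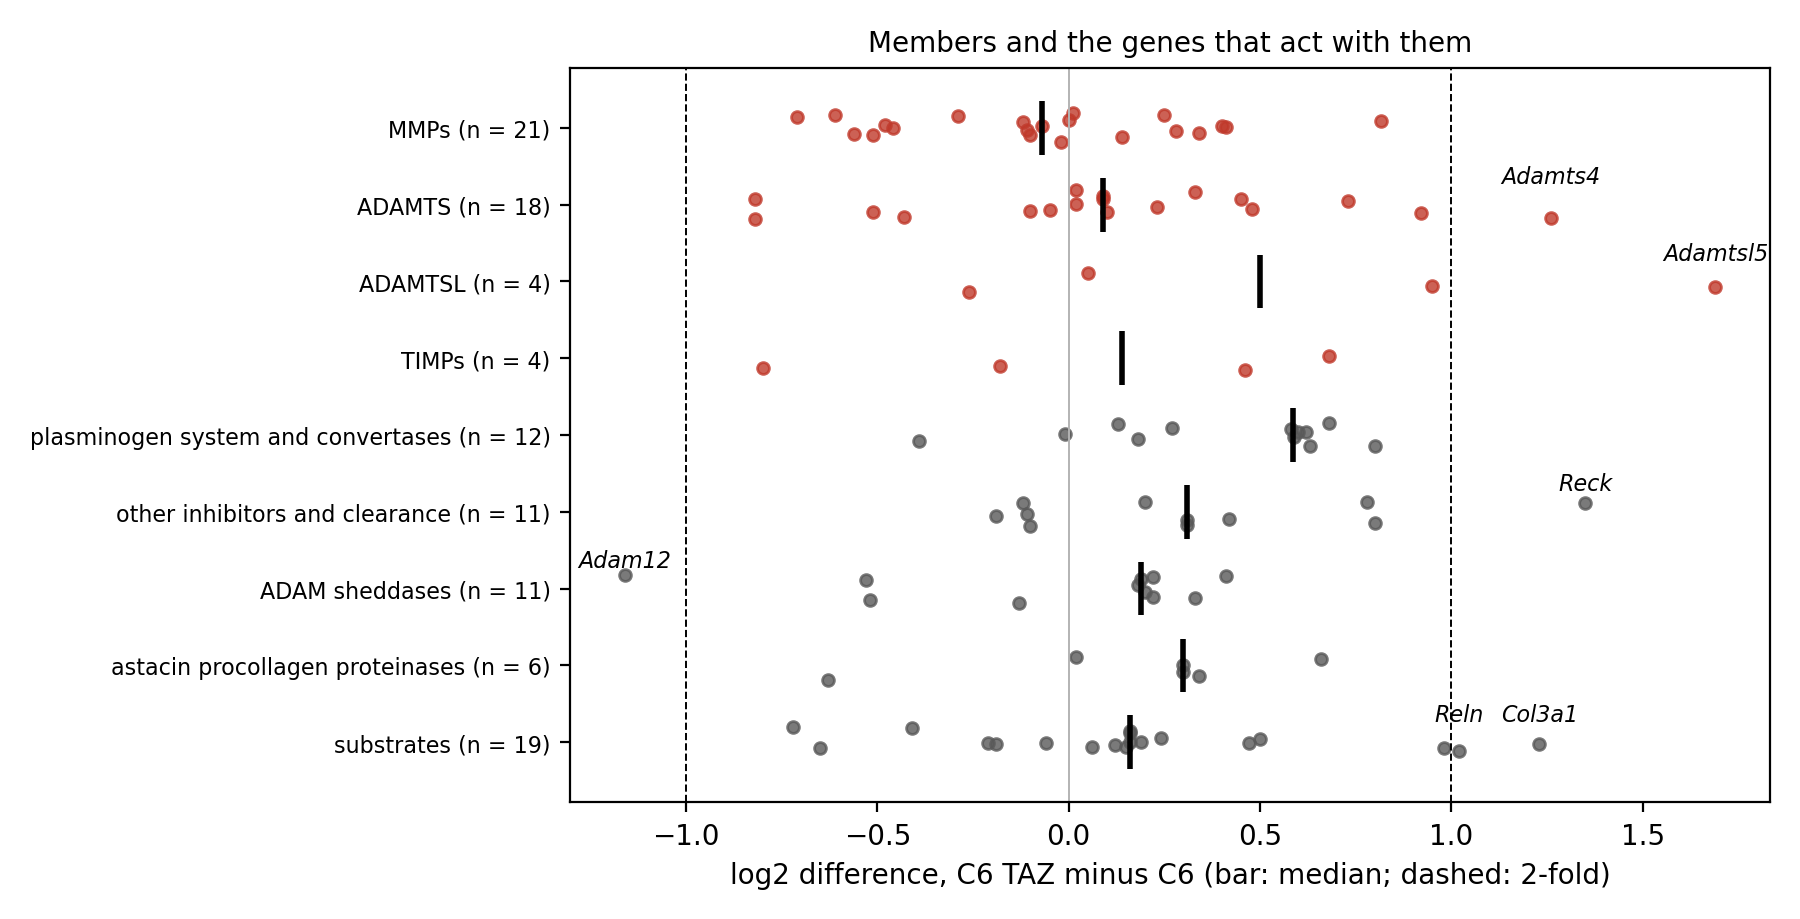
Log2 difference of C6 TAZ minus C6 for each gene of the MMP, ADAMTS, ADAMTSL and TIMP families (red) and of the 5 lists of genes that act with them (grey), with a bar at each median and dashed lines at 2-fold. Adamts4, Adamtsl5, Reck, Col3a1 and Reln lie above 2-fold and Adam12 lies below it.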

How the data were processed

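RNA pooled from 3 cultures of each genotype was measured on 1 Clariom S rat array. Each transcript cluster has a log2 signal, deposited by the authors and made, per the submitters' processing notes, with Affymetrix Expression Console. The annotation is for rn6. The sources used here do not state how probes were summarized and arrays scaled. The deposited score, a signed fold change by the authors, and a second sheet of peptidases were not used for values. Differences (C6 TAZ minus C6) were computed on these signals as deposited, and clusters carrying a gene's symbol alone were averaged (21502 clusters, 20669 genes). Clusters with several symbols were left out, among them those of Adamtsl1 and Adamts13. No test was made, since the analysis of variance of the methods cannot be run with 1 array per condition. Counting was checked on simulated differences. All 47 symbols matched RefSeq (GRCr8), used for gene order, names and promoters, with the first start listed per gene. Genes named by rule were members past 2-fold, members with a log2 signal of 8 or more in either array, all TIMPs, 8 classical members, and in each further list those past 2-fold with up to 3 others of the largest difference at a log2 signal of 6 or more. Some genes outside this naming rule were also named, for their position or class or after their values were seen. Members, lists and motifs were chosen with earlier results of these data known. Alternatives were other scalings, signal minimums, folds and cluster rules. The tools were Python 3.11.15, pandas 2.3.3, numpy 2.4.6 and matplotlib 3.10.9.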

Additional observations from a re-analysis of the deposited data

Results flagged for a closer look

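A cluster that carries the symbols Mmp28 and LOC100912318 together was left out of the member values because it cannot be assigned to 1 gene. It showed a log2 signal of 8.95 in the C6 TAZ array and 7.42 in the C6 array, a difference of 1.53, and it was noted because this signal outside the main values passed 2-fold. Of the 2 clusters of Mmp28 alone, 1 was past 2-fold (1.28) and 1 was not (0.35).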

How the results depend on the processing

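Quantile normalization and centring on all clusters or on 105 clusters of ribosomal proteins left 2 members higher and 0 lower by 2-fold or more. Among the 23 members of the naming rule no difference changed its sign or its side of 2-fold. Members named outside that rule, such as Adamts7, Adamts17 and Adamtsl4, were not part of this check of single differences. With the brightest cluster per gene, 22 of the 23 kept their side and Mmp28 passed 2-fold at 1.28, so that 3 members were higher. With clusters of several symbols added as entries of their own, 3 of 50 entries were higher. The third was the cluster of Mmp28 and LOC100912318 (1.53), not a further member gene. At 1.5-fold 7 members were higher and 5 lower. With the names of the per-sample table, 0 were higher and 2 lower. The median of 0.02 was 0.37 over the 20 members with a log2 signal of 6 or more in either array and 0.40 over the 15 with 8 or more. Some members passed these minimums through 1 array alone. The mean was 0.07. Counting Mmp1b as a member, an alternative chosen after seeing the data, left both counts as they were. The arrays carry no replicate numbers to pair. No paired analysis was possible because each condition has 1 array. Without detection calls or replicates, small differences at signals near those of the nose receptors, whose differences had an SD of 0.48, have no measured error.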
